A study of Mus musculus with 9 samples.

Results

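The cell division genes are 40 mouse genes of S phase and mitosis, chosen by gene symbol. All 40 were found by symbol among the 53342 genes of the table, and all 40 passed the filter on low counts that left 19314 genes for testing. RNA was sequenced from bladders of 8-week-old C57BL/6N wild-type mice in 3 groups of 3 libraries. H2O2/SB431542-treated mice had 1.5% H2O2 infused into the bladder and then received SB431542 (1.2 mM), an inhibitor of the TGF-β type I receptor, in the peritoneal cavity on days 0 and 4. H2O2/saline-treated mice had the same infusion and received saline in its place. Control mice are labelled untreated, while the study's methods give them an infusion of saline into the bladder and no H2O2. Bladders were taken on day 10, and one hemisphere of each gave the RNA, so every library mixes urothelium, stroma, muscle, vessels and blood cells. The study's design text calls the 3 libraries of a group biological replicates.

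A dividing cell first loads the Mcm2 to Mcm7 helicase onto its replication origins, which Cdc6 and Cdt1 direct. Cyclin E with its kinase then starts S phase, and Cdk1 with A and B cyclins drives entry into mitosis. Aurora, Polo and Bub kinases attach chromosomes to the spindle, and Cdc20 turns on the anaphase-promoting complex that ends mitosis. In an adult bladder at rest the urothelium divides rarely, and it is known to divide after injury. Most of these genes are transcribed mainly in cycling cells, so in RNA of a whole tissue fewer cycling cells and less RNA per cycling cell cannot be told apart.

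The libraries held 37329213 to 41055328 counts each. Uroplakins, cytokeratins and smooth muscle genes of the bladder were present in every library (none of 8 urothelial and none of 8 smooth muscle markers was at 0). The library H2O2/saline 1 stood apart from the other members of its group. On the first principal component it lay at −42.3, against 86.4 and 112 for H2O2/saline 2 and 3 and −61.5 to −38.8 for the 3 controls. H2O2/SB431542 1 also lay at −42.3, against 26.5 and 10.1 for H2O2/SB431542 2 and 3. On the second component the libraries numbered 1 were the highest, at 42.8 (H2O2/SB431542), 54.5 (H2O2/saline) and 34.2 (control). Every other library there was at or below 15.4. The libraries numbered 1 of all 3 groups also had higher summed haemoglobin and red cell gene levels (1724 CPM in H2O2/SB431542 1, 1698 CPM in H2O2/saline 1 and 1829 CPM in control 1) than the libraries numbered 2 and 3 (549.6 to 800.3 CPM). The part of blood in the values given here was not tested, and the counts of calls are given with and without H2O2/saline 1. Levels are counts per 1e6 counts (CPM) after scaling for library composition, and fold changes are on the log2 scale with the standard error (SE) of the fit.

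Cell division genes stood highest in 2 of the 3 H2O2/saline bladders. Summed over the 40 genes, the level was 241, 407 and 271 CPM in H2O2/SB431542 bladders, 208, 787 and 687 CPM in H2O2/saline bladders and 154, 241 and 169 CPM in control bladders. H2O2/saline 2 and 3 were the highest 2 of the 9 libraries for 32 of the 40 genes. H2O2/saline 1 was the lowest library of its group for 39 genes, and for 33 genes it lay below the highest control. Control 2 was the highest control for 30 genes and H2O2/SB431542 2 the highest of its group for 33. The mean of the H2O2/SB431542 bladders was below that of the H2O2/saline bladders for all 40 genes, and for 36 genes it lay between the means of the H2O2/saline and control bladders.

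**Figure D1:**
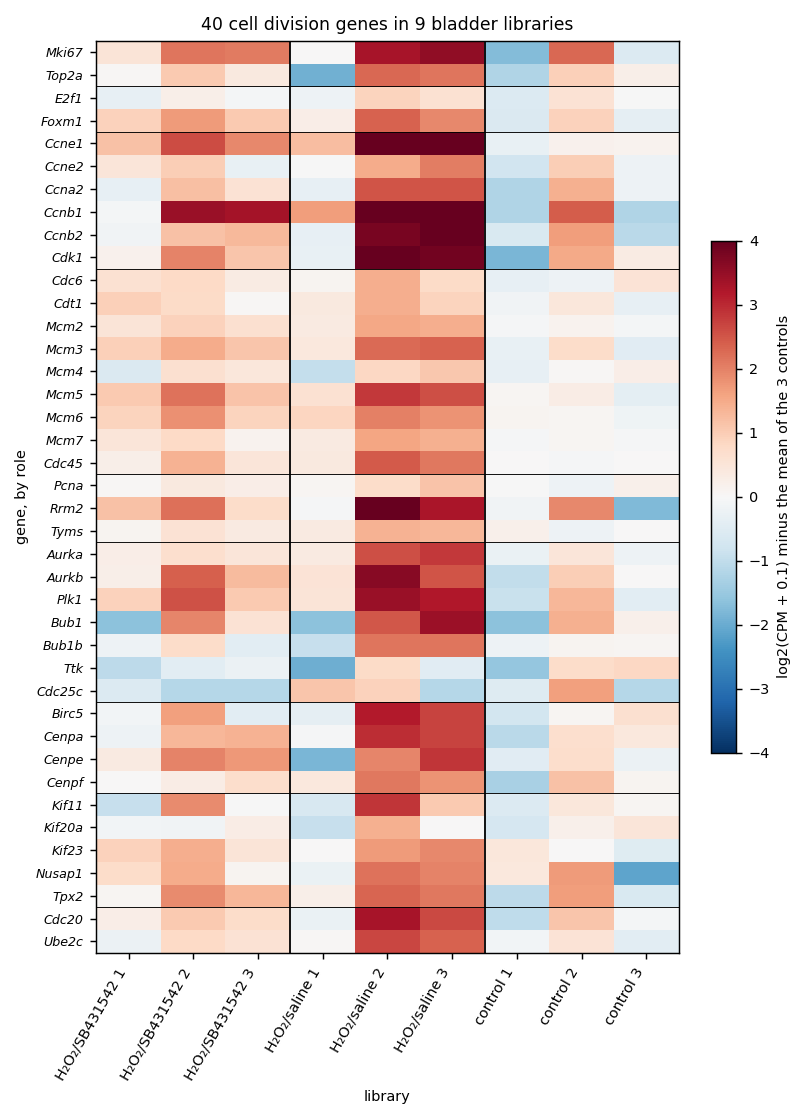
Level of each of the 40 cell division genes (rows, by role) in the 9 libraries (columns), as log2(CPM + 0.1) minus the mean of the 3 controls. Colours stop at −4 and 4. H2O2/saline 2 and 3 are the reddest columns, H2O2/saline 1 resembles the controls, and H2O2/SB431542 2 and control 2 are the reddest of their own groups.

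With H2O2/saline set against control, 39 of the 40 genes had a positive fold change, with a median of 1.67 on the log2 scale, beside −0.02 over all 19314 genes tested, of which 48.6% were positive. None of the 40 passed edgeR's quasi-likelihood test at a Benjamini-Hochberg adjusted p under 0.05, where 10 genes of the table did (0.0518%). At an unadjusted p under 0.05 there were 25 of the 40, beside 17.8% of all genes. The adjusted p of the 8 genes with the lowest values lay between 0.0600 and 0.0851. All 3 H2O2/saline libraries lay above all 3 controls for 7 genes (Ccne1, Mcm2, Mcm5, Mcm6, Mcm7, Cdc45 and Tyms), a pattern held by 9.70% of all genes.

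The count of calls changed with 1 library and with the model. Without H2O2/saline 1, 24 of the 40 genes rose in H2O2/saline bladders, beside 5.52% of all genes. That library was the lowest of its group for 39 genes, so leaving it out raises the H2O2/saline mean of these by construction. Fits without it, here and below, show how far the calls rest on that library and are no separate support for a difference. With the replicate number as a block, 16 of the 40 rose, beside 2.97% of all genes. They were Ccne1, Mcm2, Mcm3, Mcm5, Mcm6, Mcm7 and Cdc45 of S phase and Foxm1, Ccnb1, Cdk1, Aurka, Aurkb, Plk1, Cenpa, Cdc20 and Ube2c of mitosis. DESeq2, fitted to all 9 libraries, called 13 higher, beside 4.61% of all genes. Without the filter on low counts, edgeR called 26 higher, beside 3.08% of the 33427 genes then tested. No member was called lower in these fits.

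**Figure D2:**
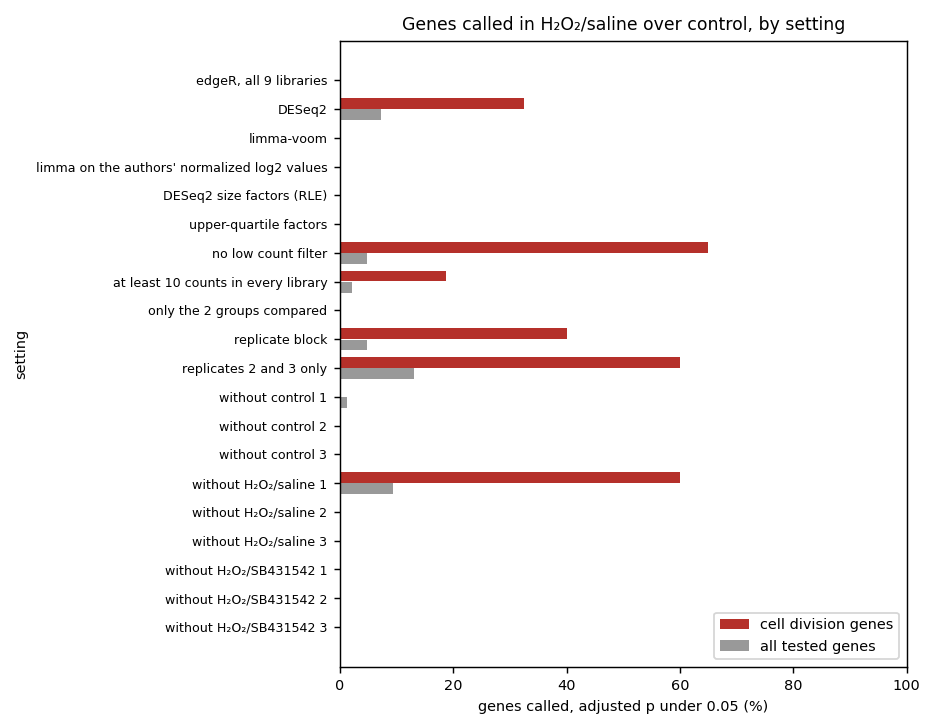
Share of the tested cell division genes (red) and of all tested genes (grey) called in H2O2/saline over control at an adjusted p under 0.05, for each of the 20 settings. The red bars are at 0 in the fit of all 9 libraries and in most settings, and reach 16 of 40 genes with the replicate block, 24 of 40 without H2O2/saline 1 and 26 of 40 with no low count filter.

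With H2O2/SB431542 set against H2O2/saline, all 40 fold changes were negative, with a median of −1.07 beside 0.02 over all genes. None of the 40 genes and none of the 19314 (0%) passed edgeR's test. At an unadjusted p under 0.05 there were 11 of the 40, beside 8.83% of all genes, and DESeq2 called none of the 40. For no member did all 3 H2O2/SB431542 libraries lie below all 3 H2O2/saline libraries, which held for 7.37% of all genes. Without H2O2/saline 1, 5 of the 40 were lower in H2O2/SB431542 bladders (Aurka, Bub1b, Ccne1, Cdc20 and Ube2c), beside 0.585% of all genes. Without the filter on low counts 10 were lower, beside 0.667% of all genes, and with the replicate block none was called. The median was −0.63 without H2O2/saline 2, with 4 fold changes then positive, and −0.71 without H2O2/saline 3, with 2 positive. With the block 2 were positive.

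With H2O2/SB431542 set against control, 36 of the 40 fold changes were positive, with a median of 0.58 beside 0.00 over all genes. None of the 40 passed edgeR's test, where 3 genes of the table did (0.0155%). At an unadjusted p under 0.05 there were 5 (Ccne1, Mcm2, Mcm3, Mcm5 and Mcm6), beside 7.61% of all genes. Every H2O2/SB431542 library lay above every control for 8 genes (those 5, Mcm7, Cdc45 and Kif23), beside 7.98% of all genes. In the fit without H2O2/saline 1, Ccne1 and Mcm5 were called higher, beside 0.347% of all genes. That library is in neither group compared here and enters through the estimate of spread that all groups share. The Mcm5 fold change was 1.53 with it and 1.52 without it. A fit of only the 2 groups compared called none of the 40, and neither did the replicate block. DESeq2 called Ccne1 and Mcm6 higher, beside 0.756%, and without the filter on low counts 6 members were higher, beside 0.996%. The median was 0.26 without H2O2/SB431542 2, with 28 fold changes then positive, 0.32 without control 1, with 31 positive, and 1.10 without control 2. Tested over the 3 groups at once, none of the 40 passed, where 3 genes of the table did (0.0155%), and 20 had an unadjusted p under 0.05, beside 14.0% of all genes. H2O2/saline libraries enter both of the comparisons with H2O2/saline, and the controls enter both comparisons with control, so their values are set side by side and not tested against each other.

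**Figure D3:**
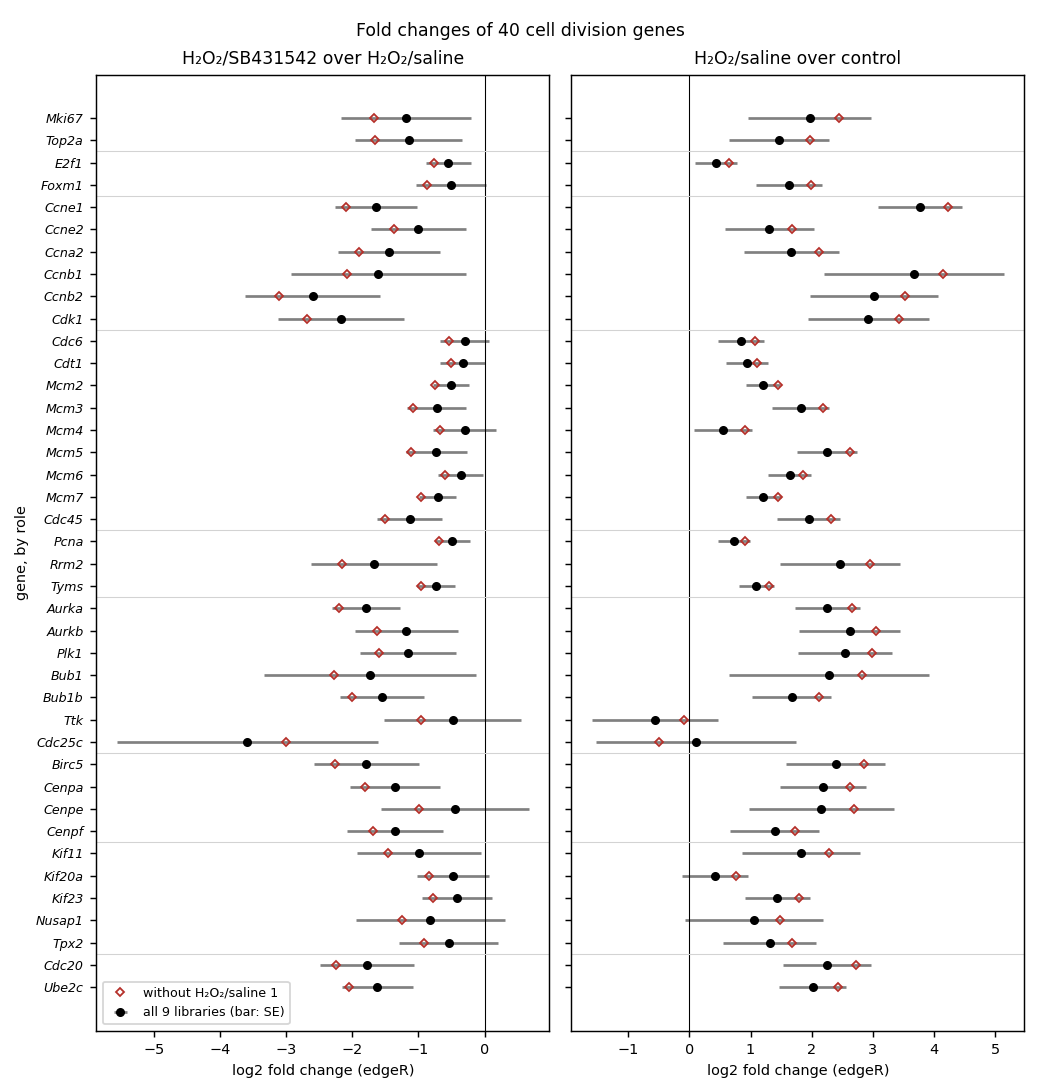
Log2 fold change of each cell division gene for H2O2/SB431542 over H2O2/saline (left) and H2O2/saline over control (right), from all 9 libraries (black, bars are SE) and without H2O2/saline 1 (red). Black points lie left of 0 for all 40 genes in the left panel and right of 0 for 39 of 40 in the right panel, and leaving out H2O2/saline 1 moves most red points farther from 0.

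Levels between genes are compared only per kilobase of exon. On that scale, as the mean over the 9 libraries, the helicase subunits Mcm5 (11.0 CPM per kb) and Mcm7 (10.3 CPM per kb), the clamp Pcna (7.55 CPM per kb), Cdc20 (7.10 CPM per kb) and Mcm2 (6.21 CPM per kb) were the most abundant members. Cdc25c (0.0309 CPM per kb), Cenpf (0.0776 CPM per kb), Cenpe (0.0950 CPM per kb) and Ttk (0.0966 CPM per kb) were the least. A count of 0 in at least 1 library was found for Ccnb1, Bub1, Cdc25c, Cenpe and Nusap1 only, and their fold changes rest on few counts. The deposited values of all 40 members are partly not whole, so a counting step that shared reads between gene models or copies may have touched them, and overlapping or antisense genes could not be separated.

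The start of S phase carried the highest fold change. Ccne1 encodes cyclin E1, which activates Cdk2 at the border of G1 and S. It had 1.79, 5.05 and 3.06 CPM in H2O2/SB431542 bladders, 1.88, 15.7 and 13.4 CPM in H2O2/saline bladders and 0.582, 0.845 and 0.825 CPM in control bladders. Every H2O2/saline and every H2O2/SB431542 library lay above every control, and H2O2/saline 2 and 3 lay above all others. The log2 fold change was 3.78 ± 0.69 for H2O2/saline over control (edgeR adjusted p = 0.0600, 0.0129 with the replicate block and 0.000237 without H2O2/saline 1). Set against H2O2/saline it was −1.65 ± 0.62 in H2O2/SB431542 bladders (edgeR adjusted p = 0.528, 0.0326 without H2O2/saline 1 and 0.244 with the block), and over control 2.13 ± 0.66 (edgeR adjusted p = 0.407). Its paralogue Ccne2 had group means of 0.891 ± 0.410 CPM in H2O2/SB431542 bladders, 1.78 ± 1.11 CPM in H2O2/saline bladders and 0.718 ± 0.531 CPM in control bladders (SD, n = 3 each). The Ccne2 fold change of 1.31 for H2O2/saline over control was called neither with all 9 libraries nor with the block nor without H2O2/saline 1.

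The replicative helicase and its loaders held 6 of the 8 lowest p-values for H2O2/saline over control. Of the 9 genes, all had a positive fold change for H2O2/saline over control, with a median of 1.21, and 8 had an unadjusted p under 0.05. With the replicate block 6 of them rose (Mcm2, Mcm3, Mcm5, Mcm6, Mcm7 and Cdc45), beside 2.97% of all genes. The same 6 rose without H2O2/saline 1, beside 5.52% of all genes. Mcm5 had 31.0, 67.7 and 33.4 CPM in H2O2/SB431542 bladders, 23.01, 106 and 89.5 CPM in H2O2/saline bladders and 15.9, 18.4 and 11.5 CPM in control bladders. The fold change for H2O2/saline over control was 2.25 ± 0.49 (edgeR adjusted p = 0.0616, 0.0209 with the block). H2O2/SB431542 2 was the highest inhibitor library by far, H2O2/saline 1 the lowest of both H2O2 groups, and the fold change of H2O2/SB431542 over control was 1.53 ± 0.48 (edgeR adjusted p = 0.408, 0.0475 without H2O2/saline 1 and 0.147 with the block).

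Mcm2 and Mcm6, further subunits of the helicase ring, had controls that lay close together. Mcm2 had 37.3, 49.9 and 41.0 CPM in H2O2/SB431542 bladders, 33.7, 76.1 and 71.8 CPM in H2O2/saline bladders and 25.4, 28.8 and 24.6 CPM in control bladders. No library of the 2 H2O2 groups fell within the control range. Mcm6 had 9.39, 17.95 and 9.35 CPM in H2O2/SB431542 bladders, 9.10, 20.4 and 17.6 CPM in H2O2/saline bladders and 5.37, 5.28 and 4.46 CPM in control bladders. Here H2O2/SB431542 2 stood beside H2O2/saline 2 and 3, and H2O2/saline 1 beside the other inhibitor libraries. The fold changes for H2O2/saline over control were 1.21 ± 0.27 for Mcm2 and 1.64 ± 0.35 for Mcm6 (edgeR adjusted p = 0.0678 and 0.0600, 0.0230 and 0.0196 with the block).

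Further ring subunits were highest in H2O2/saline 2 and 3. Mcm7 had 40.1, 50.6 and 31.9 CPM in H2O2/SB431542 bladders, 37.3, 85.8 and 77.2 CPM in H2O2/saline bladders and 28.2, 30.5 and 28.2 CPM in control bladders. Mcm3 had 13.4, 19.4 and 15.0 CPM in H2O2/SB431542 bladders, 9.34, 33.3 and 36.2 CPM in H2O2/saline bladders and 5.66, 11.6 and 5.001 CPM in control bladders. Control 2 was the highest control for both, and for Mcm3 it exceeded H2O2/saline 1. Cdc45, which joins the loaded helicase to make it active, had 2.13, 4.78 and 2.49 CPM in H2O2/SB431542 bladders, 2.34, 10.2 and 8.03 CPM in H2O2/saline bladders and 1.80, 1.72 and 1.80 CPM in control bladders. Its controls nearly coincided, while H2O2/saline 1 lay far below H2O2/saline 2 and 3. Fold changes for H2O2/saline over control were 1.21 ± 0.28, 1.82 ± 0.46 and 1.95 ± 0.51 for Mcm7, Mcm3 and Cdc45, with edgeR adjusted p of 0.0696, 0.0826 and 0.0851. Of this group, Mcm7 and Cdc45 had an unadjusted p under 0.05 for H2O2/SB431542 over H2O2/saline, with fold changes of −0.71 and −1.13.

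Loading factors and Mcm4 had smaller fold changes. Cdt1 had 13.9, 12.3 and 7.41 CPM in H2O2/SB431542 bladders, 9.42, 19.7 and 13.2 CPM in H2O2/saline bladders and 6.45, 9.90 and 5.67 CPM in control bladders. H2O2/SB431542 1 was higher than 2 of the 3 H2O2/saline libraries, and the fold change for H2O2/saline over control was 0.94 ± 0.34 (edgeR adjusted p = 0.177). Cdc6 had 6.09, 7.03 and 5.01 CPM in H2O2/SB431542 bladders, 4.31, 11.1 and 6.91 CPM in H2O2/saline bladders and 3.12, 3.43 and 5.88 CPM in control bladders. The groups overlapped, and its fold change of −0.30 ± 0.38 for H2O2/SB431542 over H2O2/saline was the smallest of the 40 in that comparison. Mcm4 stood apart from the other helicase subunits, with a fold change of 0.54 ± 0.48 for H2O2/saline over control and a level in H2O2/saline 1 (2.66 CPM) below all 3 controls.

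The clamp and the enzymes that supply nucleotides followed. Pcna, the sliding clamp of the replicative polymerases, had 14.5, 18.6 and 17.1 CPM in H2O2/SB431542 bladders, 15.0, 23.8 and 31.6 CPM in H2O2/saline bladders and 14.1, 12.4 and 16.2 CPM in control bladders. H2O2/saline 1 lay within the control range. The fold change was 0.72 ± 0.26 for H2O2/saline over control (edgeR adjusted p = 0.177, 0.0255 without H2O2/saline 1 and 0.0889 with the block). Tyms, which makes thymidylate, had 9.56, 13.2 and 11.3 CPM in H2O2/SB431542 bladders, 11.2, 23.1 and 22.3 CPM in H2O2/saline bladders and 10.1, 7.69 and 8.84 CPM in control bladders. All 3 H2O2/saline libraries were above the controls, and 1 inhibitor library lay within the control range. Its fold changes were 1.09 ± 0.29 for H2O2/saline over control and −0.74 ± 0.28 for H2O2/SB431542 over H2O2/saline (edgeR adjusted p = 0.0854 and 0.528, the first 0.00502 without H2O2/saline 1 and 0.0509 with the block). Rrm2, the regulated subunit of ribonucleotide reductase, ranged over 0.309 to 5.26 CPM in controls alone and had a fold change of 2.47 ± 0.98 for H2O2/saline over control (edgeR adjusted p = 0.217, 0.0333 without H2O2/saline 1 and 0.0704 with the block). E2f1, a transcription factor of S phase genes, had the smallest fold change of the S phase members at 0.44 ± 0.34.

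Promoter sequences are shown for the 5 members with the lowest p in H2O2/saline over control, of which 4 belong to S phase, because these carry the clearest difference from control. Each window runs from 250 bases before to 50 bases after the annotated start, 5′ to 3′ along the gene, from RefSeq on GRCm38.p6, an older build than the GRCm39 named for the counts. Capitals mark matches, on either strand, to a CHR element (the letters TTTGAA or else the letters TTCGAA), to a CCAAT box (its own letters) or to an E2F site. The E2F letters searched were TTGGCGC as one form, TTCCCGC as another, then TTCGCGC and last the form TTGCCGC. Matches that overlap run together, so that 1 capital run can hold an E2F match on each strand or a CCAAT box and an E2F match. In cycling cells E2F proteins are known to act on S phase promoters, and the DREAM complex, FoxM1 and B-Myb on CHR elements of mitotic promoters. The windows lie at chr7:38107441-38107740 (minus strand), chr1:128359656-128359955 (minus strand), chr8:75109259-75109558 (plus strand) and chr6:88898731-88899030 (minus strand).
Ccne1: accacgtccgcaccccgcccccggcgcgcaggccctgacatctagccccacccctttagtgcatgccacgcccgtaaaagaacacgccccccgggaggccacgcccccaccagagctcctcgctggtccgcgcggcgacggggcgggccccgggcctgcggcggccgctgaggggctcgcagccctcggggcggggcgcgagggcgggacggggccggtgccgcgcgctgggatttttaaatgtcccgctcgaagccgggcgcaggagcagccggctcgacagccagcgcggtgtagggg
Mcm6: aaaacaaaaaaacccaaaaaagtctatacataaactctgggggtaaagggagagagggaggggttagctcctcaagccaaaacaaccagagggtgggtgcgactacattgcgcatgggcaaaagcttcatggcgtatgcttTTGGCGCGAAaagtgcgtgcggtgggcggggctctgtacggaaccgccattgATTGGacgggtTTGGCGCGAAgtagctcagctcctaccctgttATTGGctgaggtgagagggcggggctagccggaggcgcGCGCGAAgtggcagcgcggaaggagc
Mcm5: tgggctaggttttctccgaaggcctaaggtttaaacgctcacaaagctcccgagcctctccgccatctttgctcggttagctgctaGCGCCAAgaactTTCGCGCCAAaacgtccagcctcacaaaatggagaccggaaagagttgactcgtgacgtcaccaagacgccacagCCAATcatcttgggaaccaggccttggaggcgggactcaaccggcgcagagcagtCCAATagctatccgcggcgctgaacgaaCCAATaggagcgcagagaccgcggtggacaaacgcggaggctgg
Mcm2: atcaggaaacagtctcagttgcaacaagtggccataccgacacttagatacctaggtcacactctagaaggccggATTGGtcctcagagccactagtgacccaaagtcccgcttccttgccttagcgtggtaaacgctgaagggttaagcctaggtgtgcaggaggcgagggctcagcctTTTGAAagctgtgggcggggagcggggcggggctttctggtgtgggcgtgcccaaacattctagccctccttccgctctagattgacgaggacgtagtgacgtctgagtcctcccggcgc

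Mcm6 held 5 E2F matches and 2 CCAAT boxes, Mcm5 held 3 of each, Mcm2 held 1 CHR element and 1 CCAAT box, and Ccne1 had no match to these letters in this window. Of the 40 members, 32 had an entry, with 33 windows. An E2F match stood in 11 of the 33 windows (33.3%) against 9.57% of all 32851 windows of the table. By phase it was found in 7 of 13 S phase members and 2 of 18 mitotic members. A match is a run of letters and no evidence of binding.

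The mitotic members had a higher median fold change than the S phase members. Of 24 genes, 23 had a positive fold change for H2O2/saline over control, with a median of 1.92, beside 1.21 for the 15 S phase genes (Mki67 is in neither set). For H2O2/SB431542 over H2O2/saline the medians were −1.35 for the mitotic and −0.71 for the S phase genes. The summed level of the mitotic genes was 44.8, 106 and 69.1 CPM in H2O2/SB431542 bladders, 36.4, 295 and 240.3 CPM in H2O2/saline bladders and 24.5, 76.4 and 38.8 CPM in control bladders. That of the S phase genes was 194, 294 and 196 CPM in H2O2/SB431542 bladders, 169.7, 478 and 429.8 CPM in H2O2/saline bladders and 129, 157 and 129.7 CPM in control bladders. The ratio of the mitotic to the S phase sum was 0.230, 0.362 and 0.352 in H2O2/SB431542 bladders, 0.215, 0.619 and 0.559 in H2O2/saline bladders and 0.190, 0.486 and 0.299 in control bladders. It was lowest in the library numbered 1 of every group, and control 2 was above every inhibitor library.

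**Figure D4:**
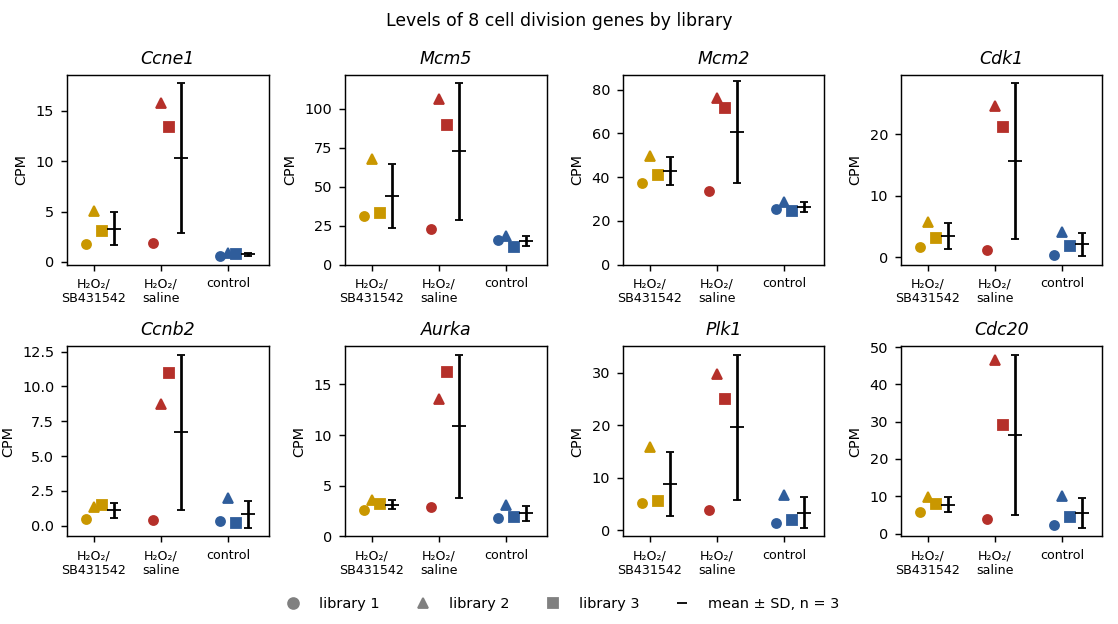
CPM of 8 cell division genes in each library of the H2O2/SB431542, H2O2/saline and control groups, with the group mean and SD (n = 3) beside the points. In all 8 panels the triangle and the square of the H2O2/saline group lie above every other point and its circle lies near the other groups.

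Cdk1 and its B cyclins had the highest fold changes among the mitotic genes. Cdk1, the kinase that starts mitosis, had 1.57, 5.73 and 3.09 CPM in H2O2/SB431542 bladders, 1.10, 24.6 and 21.2 CPM in H2O2/saline bladders and 0.317, 4.09 and 1.75 CPM in control bladders. H2O2/saline 1 was below 2 controls, and the other H2O2/saline libraries were more than 3 times any other value. The fold changes were 2.92 ± 0.99 for H2O2/saline over control (edgeR adjusted p = 0.153, 0.0211 with the block) and −2.17 ± 0.96 for H2O2/SB431542 over H2O2/saline (edgeR adjusted p = 0.554). Ccnb2, a B cyclin, had 0.483, 1.35 and 1.49 CPM in H2O2/SB431542 bladders, 0.405, 8.72 and 11.0 CPM in H2O2/saline bladders and 0.317, 1.95 and 0.206 CPM in control bladders. Its fold changes were 3.02 ± 1.05 for H2O2/saline over control and −2.60 ± 1.02 for H2O2/SB431542 over H2O2/saline (edgeR adjusted p = 0.162 and 0.531, the first 0.0134 without H2O2/saline 1 and 0.0727 with the block). Ccnb1, the other B cyclin, had 0.121, 2.43 and 2.24 CPM in H2O2/SB431542 bladders, 0.636, 7.50 and 6.44 CPM in H2O2/saline bladders and 0, 1.14 and 0 CPM in control bladders. It had no count in 2 controls, so its fold change of 3.67 ± 1.47 for H2O2/saline over control depends on how a 0 is treated (edgeR adjusted p = 0.218, 0.0349 with the block and 0.0708 without H2O2/saline 1). Ccna2, which serves both S phase and mitosis, had a fold change of 1.67 ± 0.78 for H2O2/saline over control, with control 2 (4.70 CPM) above H2O2/saline 1 (1.33 CPM).

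The kinases that build and check the spindle, grouped with the phosphatase Cdc25c, came next. Of these 7 genes 6 had a positive fold change for H2O2/saline over control. Aurka encodes Aurora A, the kinase of the spindle poles, and had 2.66, 3.60 and 3.16 CPM in H2O2/SB431542 bladders, 2.86, 13.6 and 16.2 CPM in H2O2/saline bladders and 1.80, 3.12 and 1.91 CPM in control bladders. H2O2/saline 1 lay within the control range and H2O2/saline 2 and 3 above 10 CPM, while all 3 inhibitor libraries stayed below 4 CPM. The fold changes were 2.26 ± 0.53 for H2O2/saline over control (edgeR adjusted p = 0.0679, 0.0290 with the block) and −1.79 ± 0.52 for H2O2/SB431542 over H2O2/saline (edgeR adjusted p = 0.528, 0.0178 without H2O2/saline 1 and 0.224 with the block). Aurkb, the kinase of the chromosomal passenger complex, had 0.869, 4.20 and 1.85 CPM in H2O2/SB431542 bladders, 1.10, 10.1 and 4.56 CPM in H2O2/saline bladders and 0.317, 1.51 and 0.722 CPM in control bladders. Its fold change for H2O2/saline over control was 2.62 ± 0.82 (edgeR adjusted p = 0.129, 0.0135 with the block). Plk1, Polo-like kinase 1, had 5.10, 15.8 and 5.51 CPM in H2O2/SB431542 bladders, 3.82, 29.8 and 25.0 CPM in H2O2/saline bladders and 1.38, 6.68 and 1.93 CPM in control bladders. H2O2/SB431542 2 was well above the other inhibitor libraries, and the fold change for H2O2/saline over control was 2.55 ± 0.77 (edgeR adjusted p = 0.119, 0.0173 with the block).

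The other members of this group were near the floor or overlapped. Bub1b, a checkpoint protein, was at 1.07, 9.60 and 9.51 CPM in H2O2/saline bladders, against 1.80, 2.30 and 2.24 CPM in control bladders, and had a fold change of 1.67 ± 0.64 (edgeR adjusted p = 0.2001, 0.00546 without H2O2/saline 1 and 0.171 with the block). Ttk, a checkpoint kinase, had 0.193, 0.350 and 0.412 CPM in H2O2/SB431542 bladders, 0.0578, 0.931 and 0.347 CPM in H2O2/saline bladders and 0.106, 0.898 and 0.980 CPM in control bladders. It was the one member with a negative fold change for H2O2/saline over control (−0.56 ± 1.03, edgeR adjusted p = 0.840). Cdc25c, the phosphatase that activates Cdk1, had 0.0483, 0 and 0 CPM in H2O2/SB431542 bladders, 0.376, 0.310 and 0 CPM in H2O2/saline bladders and 0.0529, 0.581 and 0 CPM in control bladders. Its fold changes of −3.59 ± 1.97 for H2O2/SB431542 over H2O2/saline and −3.48 ± 1.97 for H2O2/SB431542 over control were the lowest of the 40 and rest on at most 22 counts in a library. Bub1 had no count in the library numbered 1 of any group.

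Centromere and passenger proteins had a median fold change of 2.17 for H2O2/saline over control. Birc5 encodes survivin, a subunit of the passenger complex, and had 1.38, 4.88 and 1.07 CPM in H2O2/SB431542 bladders, 1.13, 14.0 and 10.1 CPM in H2O2/saline bladders and 0.846, 1.58 and 2.37 CPM in control bladders. Cenpa, the histone H3 variant of centromeres, had 2.66, 7.98 and 8.23 CPM in H2O2/SB431542 bladders, 3.03, 24.6 and 20.6 CPM in H2O2/saline bladders and 1.40, 4.99 and 4.20 CPM in control bladders. For both, H2O2/saline 1 lay within the control range. The fold changes for H2O2/saline over control were 2.39 ± 0.81 for Birc5 and 2.19 ± 0.70 for Cenpa (edgeR adjusted p = 0.153 and 0.133, 0.0715 and 0.0135 with the block, 0.0109 and 0.00700 without H2O2/saline 1). Cenpe, a kinetochore motor, and Cenpf stayed below 3 CPM in every library, and Cenpe was called in the fit without H2O2/saline 1 (edgeR adjusted p = 0.376, 0.0488 without it and 0.464 with the block).

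The partners of the anaphase-promoting complex had fold changes of like size. Cdc20, its activator, had 5.65, 9.75 and 7.82 CPM in H2O2/SB431542 bladders, 3.82, 46.4 and 29.2 CPM in H2O2/saline bladders and 2.22, 10.04 and 4.43 CPM in control bladders. Ube2c, its ubiquitin-conjugating enzyme, had 4.78, 9.85 and 8.44 CPM in H2O2/SB431542 bladders, 5.81, 36.2 and 29.0 CPM in H2O2/saline bladders and 5.18, 8.19 and 4.18 CPM in control bladders. In both, H2O2/saline 1 was below control 2 and all inhibitor libraries stayed below 10 CPM. The fold changes for H2O2/saline over control were 2.25 ± 0.72 and 2.02 ± 0.54 (edgeR adjusted p = 0.133 and 0.0928, 0.0303 and 0.0380 with the block). For H2O2/SB431542 over H2O2/saline they were −1.77 ± 0.71 and −1.62 ± 0.54 (edgeR adjusted p = 0.531 and 0.528, 0.0438 and 0.0218 without H2O2/saline 1, 0.264 and 0.223 with the block).

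Spindle motors and microtubule factors had a lower median fold change (1.31) than the group of kinases and Cdc25c (2.26) for H2O2/saline over control. The 5 genes (Kif11, Kif20a, Kif23, Nusap1 and Tpx2) had fold changes of 0.42 to 1.82 for H2O2/saline over control, and 1 had an unadjusted p under 0.05. That gene was Kif23, a motor of the central spindle, at 2.34, 3.43 and 1.71 CPM in H2O2/SB431542 bladders, 1.19, 4.04 and 4.76 CPM in H2O2/saline bladders and 1.67, 1.19 and 0.825 CPM in control bladders. The inhibitor libraries all lay above the controls, and H2O2/saline 1 lay within the control range. Its fold change for H2O2/saline over control was 1.44 ± 0.54 (edgeR adjusted p = 0.189, 0.0284 without H2O2/saline 1 and 0.171 with the block).

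Foxm1, a transcription factor of mitotic genes, had 5.14, 9.003 and 5.62 CPM in H2O2/SB431542 bladders, 3.30, 14.3 and 10.5 CPM in H2O2/saline bladders and 1.77, 5.23 and 2.09 CPM in control bladders. Its fold change for H2O2/saline over control was 1.63 ± 0.54 (edgeR adjusted p = 0.146, 0.0290 with the block), and its inhibitor libraries all lay above control 1 and 3. Mki67, the gene of the Ki-67 proliferation antigen, had 2.004, 6.40 and 6.10 CPM in H2O2/SB431542 bladders, 1.39, 14.4 and 17.3 CPM in H2O2/saline bladders and 0.344, 7.18 and 0.902 CPM in control bladders. Control 2 exceeded every inhibitor library, and no fit named above called it. Top2a, the topoisomerase that untangles replicated chromosomes, likewise had a control 2 (4.49 CPM) above H2O2/saline 1 (0.520 CPM), and a fold change of 1.46 ± 0.82 for H2O2/saline over control (edgeR adjusted p = 0.388, 0.0307 without H2O2/saline 1 and 0.241 with the block).

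The remaining promoter of the 5, Aurka, is mitotic and is shown with Cdk1, Ccnb2 and Ccnb1, which were added after their fold changes were seen. They lie at chr2:172370521-172370820 (minus strand), chr10:69352863-69353162 (minus strand), chr9:70421505-70421804 (minus strand) and chr13:100786437-100786736 (minus strand), with capitals as above.
Aurka: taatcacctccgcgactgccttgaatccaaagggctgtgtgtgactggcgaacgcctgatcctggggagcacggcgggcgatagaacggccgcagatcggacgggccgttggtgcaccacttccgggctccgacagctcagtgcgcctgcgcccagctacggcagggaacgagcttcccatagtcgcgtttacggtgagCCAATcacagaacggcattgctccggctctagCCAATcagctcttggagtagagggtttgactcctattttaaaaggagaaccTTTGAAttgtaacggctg
Cdk1: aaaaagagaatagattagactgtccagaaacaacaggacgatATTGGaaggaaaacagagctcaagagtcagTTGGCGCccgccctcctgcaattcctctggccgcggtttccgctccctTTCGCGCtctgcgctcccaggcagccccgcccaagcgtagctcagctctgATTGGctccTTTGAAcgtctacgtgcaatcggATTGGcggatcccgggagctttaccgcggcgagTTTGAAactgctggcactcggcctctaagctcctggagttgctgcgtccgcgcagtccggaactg
Ccnb2: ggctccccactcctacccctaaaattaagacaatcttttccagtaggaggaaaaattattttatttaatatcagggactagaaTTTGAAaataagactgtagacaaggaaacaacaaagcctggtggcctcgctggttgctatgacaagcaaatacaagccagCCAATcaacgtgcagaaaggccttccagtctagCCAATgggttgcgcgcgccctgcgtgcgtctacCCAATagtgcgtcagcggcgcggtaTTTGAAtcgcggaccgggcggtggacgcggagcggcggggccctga
Ccnb1: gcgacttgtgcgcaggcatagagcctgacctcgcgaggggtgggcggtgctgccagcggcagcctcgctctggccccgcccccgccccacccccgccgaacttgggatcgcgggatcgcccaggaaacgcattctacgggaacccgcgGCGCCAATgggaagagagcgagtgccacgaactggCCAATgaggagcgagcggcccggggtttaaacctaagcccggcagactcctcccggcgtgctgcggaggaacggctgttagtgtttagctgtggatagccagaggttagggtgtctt

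Aurka held 1 CHR element and 2 CCAAT boxes, Cdk1 held 2 CHR elements, 3 CCAAT boxes and 2 E2F matches, Ccnb2 held 2 CHR elements and 3 CCAAT boxes, and Ccnb1 held 2 CCAAT boxes and 1 E2F match that overlaps one of them. A CHR element stood in 18 of the 33 member windows (54.5%) against 19.2% of all windows, in 14 of 18 mitotic members and 3 of 13 S phase members. A CCAAT box stood in 26 of 33 (78.8%) against 37.4%. The median fold change for H2O2/saline over control was 1.96 for the 18 members with a CHR element and 1.73 for the 14 without.

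Other genes of the cell cycle, listed by function, gave the context of these values. Of 34 further DNA replication genes 32 were tested, and for H2O2/saline over control 29 fold changes were positive with a median of 0.85. Of 58 further mitosis genes 57 were tested, with 50 positive and a median of 1.19. In the fit of all 9 libraries edgeR called none of either list in any comparison, while 13 and 21 had an unadjusted p under 0.05 for H2O2/saline over control, beside 17.8% of all genes. With the replicate block 6 and 11 of them rose, beside 2.97% of all genes. Without H2O2/saline 1 there were 11 and 17 higher, beside 5.52% of all genes, with Pttg1 alone lower. For H2O2/SB431542 over H2O2/saline 27 of the 32 and 51 of the 57 fold changes were negative, with medians of −0.42 and −0.92.

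**Figure D5:**
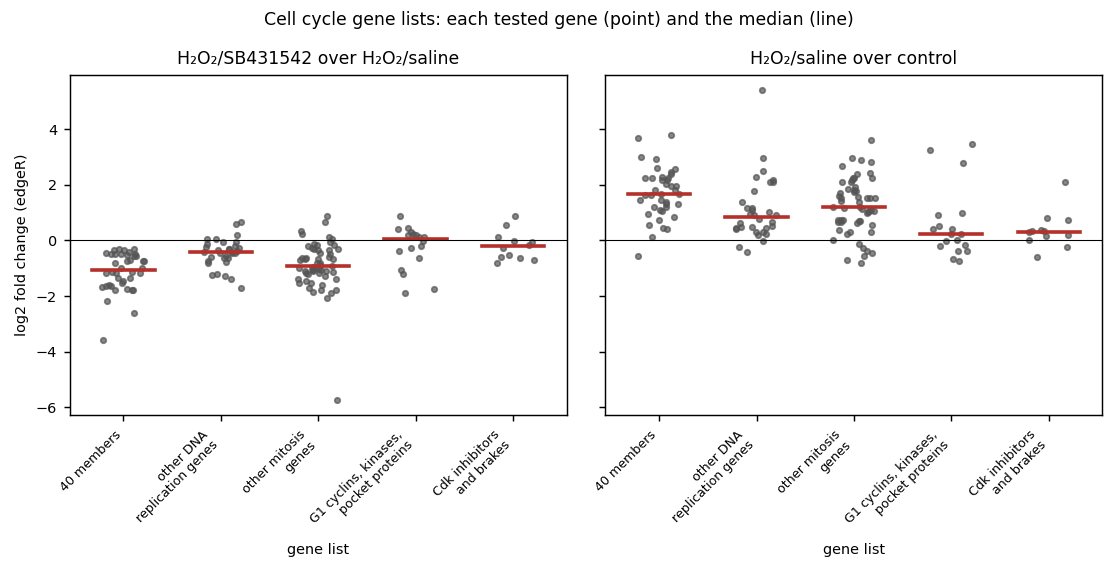
Log2 fold change (edgeR, all 9 libraries) of each tested gene in 5 lists of cell cycle genes, for H2O2/SB431542 over H2O2/saline (left) and H2O2/saline over control (right). Red lines are medians. The 40 members and the other replication and mitosis genes lie mostly below 0 on the left and above 0 on the right, while the G1 list has medians of 0.04 and 0.23.

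The 2 genes of each list with the lowest p are given. Chaf1b, a subunit of the histone chaperone of replication, had 5.58, 12.0 and 5.88 CPM in H2O2/SB431542 bladders, 5.75, 17.9 and 12.5 CPM in H2O2/saline bladders and 2.51, 2.46 and 2.45 CPM in control bladders. Fen1, the nuclease that trims Okazaki fragments, had 4.27, 4.65 and 3.82 CPM in H2O2/SB431542 bladders, 3.21, 15.7 and 11.2 CPM in H2O2/saline bladders and 2.25, 2.03 and 2.71 CPM in control bladders. Their fold changes for H2O2/saline over control were 2.28 ± 0.43 and 2.11 ± 0.47 (edgeR adjusted p = 0.0600 and 0.0632, 0.0135 and 0.0360 with the block). Of the mitosis list, Kif22, a chromosome-bound motor, had 1.86, 3.80 and 2.24 CPM in H2O2/SB431542 bladders, 1.42, 14.7 and 16.8 CPM in H2O2/saline bladders and 1.22, 1.85 and 1.37 CPM in control bladders. Cdc25b, a phosphatase of Cdk1, had 30.1, 25.6 and 26.9 CPM in H2O2/SB431542 bladders, 30.8, 49.2 and 45.9 CPM in H2O2/saline bladders and 23.4, 19.7 and 19.4 CPM in control bladders. The inhibitor libraries of Cdc25b all lay above the controls and below H2O2/saline 1, so its 3 groups did not overlap. Fold changes for H2O2/saline over control were 2.89 ± 0.69 for Kif22 and 1.01 ± 0.21 for Cdc25b (edgeR adjusted p = 0.0719 and 0.0600, 0.0380 and 0.0261 with the block).

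G1 cyclins, their kinases, E2F factors and pocket proteins did not follow as a list. Of 18 genes, 11 had a positive and 7 a negative fold change for H2O2/saline over control, with a median of 0.23, and edgeR called none (7 had an unadjusted p under 0.05). Within it Mybl2, the gene of B-Myb, had 1.86, 2.73 and 2.26 CPM in H2O2/SB431542 bladders, 1.36, 13.7 and 10.3 CPM in H2O2/saline bladders and 0.978, 0.951 and 0.722 CPM in control bladders. E2f2, an activating E2F, had 3.04, 2.45 and 1.53 CPM in H2O2/SB431542 bladders, 2.75, 5.85 and 6.09 CPM in H2O2/saline bladders and 0.952, 0.423 and 0.773 CPM in control bladders. Both had every H2O2/saline library above every control, with fold changes of 3.25 ± 0.66 and 2.77 ± 0.48 (edgeR adjusted p = 0.0600 and 0.0600, 0.0288 and 0.0207 with the block).

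Among 12 Cdk inhibitors and other brakes of the cycle, 1 gene rose in the fit of all 9 libraries, beside 0.0518% of all genes called. Cdkn1a encodes p21, which blocks cyclin-dependent kinases. It had 213, 246 and 333 CPM in H2O2/SB431542 bladders, 179, 408 and 360.2 CPM in H2O2/saline bladders and 70.5, 89.5 and 63.3 CPM in control bladders. Every library of both H2O2 groups was above every control. The fold change was 2.09 ± 0.30 for H2O2/saline over control (edgeR adjusted p = 0.0356), and −0.26 ± 0.29 for H2O2/SB431542 over H2O2/saline and 1.83 ± 0.30 for H2O2/SB431542 over control did not pass (edgeR adjusted p = 0.840 and 0.136). The fold change over control in H2O2/SB431542 bladders did pass with the block and without H2O2/saline 1 (edgeR adjusted p = 0.0193 and 0.00334). Cdkn1a was above the controls in H2O2/saline 1 too, which held for 7 of the 40 members. Cdkn1b, the gene of p27, had the other low p of the list, at 18.6, 15.9 and 16.4 CPM in H2O2/saline bladders, against 20.8, 25.0 and 30.4 CPM in control bladders, with a fold change of −0.58 ± 0.19 (edgeR adjusted p = 0.150).

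Markers of other cell types also differed between the groups and the libraries. The summed level of 8 basal epithelial markers was 7694, 8591 and 7466 CPM in H2O2/SB431542 bladders, 7860, 11685 and 10318 CPM in H2O2/saline bladders and 4343, 2880 and 2360 CPM in control bladders, so the H2O2 groups lay above the controls, H2O2/saline 1 included. For H2O2/saline over control 6 of the 8 fold changes were positive and 2 negative, from −0.80 to 5.10. With all 9 libraries, 1 of these 8 rose in H2O2/saline bladders, beside 0.0518% of all genes called, and with the replicate block 6 did, beside 2.97% of all genes. The first was Krt15, a basal keratin, with 2705, 4233 and 3906 CPM in H2O2/SB431542 bladders, 3244, 5348 and 4917 CPM in H2O2/saline bladders and 1573, 1131 and 1131 CPM in control bladders (1.82 ± 0.26, edgeR adjusted p = 0.0356). For 9 macrophage and monocyte markers the sum was 459, 808 and 584 CPM in H2O2/SB431542 bladders, 641, 1091 and 1016 CPM in H2O2/saline bladders and 387, 468 and 405 CPM in control bladders, and for H2O2/saline over control edgeR called none of the 9 with all 9 libraries (7 had an unadjusted p under 0.05) and 7 with the replicate block, beside 2.97% of all genes. For 4 genes of all leukocytes it was 92.3, 143 and 97.8 CPM in H2O2/SB431542 bladders, 113, 185 and 165 CPM in H2O2/saline bladders and 65.5, 64.3 and 41.8 CPM in control bladders, and for 8 neutrophil markers 2.66, 8.93 and 4.89 CPM in H2O2/SB431542 bladders, 3.70, 19.4 and 18.2 CPM in H2O2/saline bladders and 3.52, 1.80 and 2.53 CPM in control bladders. The sums of the basal, macrophage and monocyte, leukocyte and neutrophil markers, like that of the cell division genes, were highest in H2O2/saline 2 and 3. Of the neutrophil markers, 4 and 5 of the 8 were at 0 in control 3 and 2.

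Endothelial markers also stood highest in H2O2/saline 2 and 3. Their sum over 8 genes was 276, 285 and 289.9 CPM in H2O2/SB431542 bladders, 233, 476 and 380.3 CPM in H2O2/saline bladders and 207, 259.7 and 173 CPM in control bladders, with H2O2/saline 1 within the control range. For H2O2/saline over control edgeR called none of the 8 with all 9 libraries (6 had an unadjusted p under 0.05, beside 17.8% of all genes). It called 2 higher with the block, beside 2.97% of all genes, and 5 higher without H2O2/saline 1, beside 5.52%. For 8 fibroblast markers the sum ranged over 4308 to 6699 CPM in H2O2/SB431542 bladders, 5504 to 5922 CPM in H2O2/saline bladders and 2646 to 4901 CPM in control bladders, so by the sum every H2O2/saline library lay above every control, H2O2/saline 1 included. The median of the 8 markers did not keep this order: its log2 distance from the control mean was 0.0926 in H2O2/saline 1 and 0.415 in control 2. For H2O2/saline over control 6 of the 8 fold changes were positive and 2 negative, and edgeR called none with all 9 libraries. For 8 lymphocyte markers the sum ranged over 2.90 to 5.65 CPM in H2O2/SB431542 bladders, 4.58 to 10.7 CPM in H2O2/saline bladders and 2.45 to 4.998 CPM in control bladders, and its highest library was H2O2/saline 1. No basal, macrophage, leukocyte, endothelial or fibroblast marker was at 0 in any library. Other lists did not rise: for H2O2/saline over control all 8 smooth muscle fold changes were negative, as were 5 of 6 for glia and nerve and 4 of 8 for umbrella and intermediate urothelium. The smooth muscle sum ranged over 25722 to 27309 CPM in H2O2/SB431542 bladders and 25126 to 33385 CPM in H2O2/saline bladders. It was 22691, 50785 and 43755 CPM in control bladders. The part of these cell types in the levels of the cell division genes was not tested.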

How the data were processed

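Total RNA was poly-A selected and sequenced as 150 bp read pairs (Illumina Novaseq), and the authors analysed the reads with Strand NGS against GRCm39. For the aligner, its version, the counting rule and strandedness, the sources used here give nothing. The authors deposited raw values per gene, which were taken to be expected counts because only 32.0% of the values above 0 are whole and the others are not. They also deposited log2 values that were scaled and centred on each gene's mean over the 9 libraries. The log2 values served only as an alternative.

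The expected counts were rounded and fitted with edgeR 4.0.16 (R 4.3.3) by its quasi-likelihood test over all 9 libraries, with TMM scaling, filterByExpr and Benjamini-Hochberg adjustment over 19314 genes in each comparison, at a threshold of 0.05. CPM were computed from the same scaled library sizes. The fit was tested on simulated data. Totals of 37329213 to 41055328 counts a library bound counting error, and for genes with few counts it is large. P-values set differences between group means against the spread between libraries within groups, estimated over all groups together.

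The members and lists were chosen with earlier results of these data known. Values in every library were given for the 20 members with the lowest p in H2O2/saline over control, for members with an extreme fold change, for genes of other lists that were called and for the 2 of each cell cycle list with the lowest p; Ccnb1 and Mki67 were added after their values were seen. Promoter windows of 250 bases before to 50 after the start came from RefSeq (GRCm38.p6), matched by symbol for 32 members; exon lengths came from a GRCm38 annotation.

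The groups share replicate numbers. Deviations from the group means of same-numbered libraries correlated across genes with r of 0.312, 0.119 and 0.112 (numbers 1, 2 and 3) between H2O2/saline and control, 0.514, 0.201 and 0.129 between H2O2/SB431542 and H2O2/saline, and 0.321, 0.0399 and 0.0770 between H2O2/SB431542 and control. Neither the labels nor the methods say what a number stands for, so the pairing rests on these values, with every r over 0.1 for the first 2 comparisons only. The largest r with a library of another number was −0.145, 0.0528 and 0.0801 in the first comparison. In the second it was −0.293, 0.183 and 0.121, close to the same-number r for numbers 2 and 3. In the third it was −0.127, 0.129 and 0.0999, above the same-number r for numbers 2 and 3. Pairing of numbers 2 and 3 is thus uncertain, and so is the block. Alternatives were DESeq2 1.42.0, limma 3.58.1 (voom), other scalings and filters, the replicate block, and fits without single libraries. Tables and figures were made with Python 3.11.15, pandas 2.3.3, numpy 2.4.6 and matplotlib 3.10.9.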

Additional observations from a re-analysis of the deposited data

How the results depend on the processing

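Of 19 alternatives, the other scalings, limma-voom, the authors' log2 values, fits of only the groups compared and the fits without any 1 library other than H2O2/saline 1 left all 40 members uncalled in every comparison. In H2O2/saline over control, where no member was called with all 9 libraries, the members called numbered 13 with DESeq2, 26 without a low count filter, 6 with at least 10 counts in every library, 16 with the replicate block and 24 with replicates 2 and 3 only, and 0 to 24 when single libraries were left out (24 without H2O2/saline 1 and 0 without any other). All genes called, higher or lower, numbered 1409 of 19314 with DESeq2, 1579 of 33427 without a filter and 323 of 14798 with at least 10 counts. Of 19314 genes, 925 were called with the block, 2521 with replicates 2 and 3 only and 1822 without H2O2/saline 1. In H2O2/SB431542 over H2O2/saline the members called numbered 10 without a filter, 6 with replicates 2 and 3 only and 0 to 5 without single libraries (5 without H2O2/saline 1), and the block called 0. All genes called there numbered 274 of 33427 without a filter. Of 19314 genes it was 234 with replicates 2 and 3 only and 197 without H2O2/saline 1. In H2O2/SB431542 over control the members called numbered 2 with DESeq2, 6 without a filter, 3 with replicates 2 and 3 only and 0 to 2 without single libraries (2 without H2O2/saline 1, which is in neither group). All genes called there numbered 439 of 33427 without a filter. Of 19314 genes it was 197 with DESeq2, 449 with replicates 2 and 3 only and 83 without H2O2/saline 1. Over the 3 groups at once the members called numbered 11 with DESeq2, 24 without a filter, 5 with the replicate block, 19 with replicates 2 and 3 only and 0 to 19 without single libraries (19 without H2O2/saline 1). All genes called there numbered 1427 of 33427 without a filter. Of 19314 genes it was 929 with DESeq2, 228 with the block, 1697 with replicates 2 and 3 only and 1085 without H2O2/saline 1. Filters change how many genes are tested, and the cause of the other differences was not tested.

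The median log2 fold change of the members, with single libraries left out, ranged over 1.33 to 2.31 for H2O2/saline over control, −1.48 to −0.63 for H2O2/SB431542 over H2O2/saline and 0.26 to 1.10 for H2O2/SB431542 over control. With single libraries left out, 37 to 39 members had a positive fold change in H2O2/saline over control, 0 to 4 in H2O2/SB431542 over H2O2/saline and 28 to 38 in H2O2/SB431542 over control. Among the fold changes whose ranges were followed gene by gene, signs turned for 5. Cdc25c in H2O2/saline over control was at −0.93 with replicates 2 and 3 only and at −0.49 to 2.98 without single libraries, and Kif20a at −0.46 to 0.77. Cdc6 and Mcm4 in H2O2/SB431542 over H2O2/saline were at −0.53 to 0.11 and −0.67 to 0.066, and Ccnb2 in H2O2/SB431542 over control at −0.018 to 2.06. Depth limits the members with 0 counts in a library.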
